A study of Arabidopsis thaliana with 6 samples.

Results

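A group of 61 Arabidopsis genes was high in 1 array of each genotype and low in another array of each. They were read from 61 probe sets, each of a different gene, among 13513 probe sets assigned to 1 gene (13356 genes). Members were chosen by their measured intensities in 4 of the 6 arrays and by their mean over all 6. A gene was taken where that mean was 100 or more, where mutant 1 and wild type 2 both lay above mutant 2 and wild type 1, and where the first pair of arrays exceeded the second by 0.7 or more. This last value, called the pair difference, is the mean of log2(value + 16) over mutant 1 and wild type 2 minus that over mutant 2 and wild type 1. The pattern was met by 74 of 6276 probe sets with enough signal, or 1.18%, of which 8 plastid-encoded genes and 5 nuclear genes (BHLH101, PYE, AT1G47400, AT5G05250 and THI2.2) were set aside by the same rule. Since the pair difference chose the members, it is given as a description and was not tested.

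The arrays came from whole seedlings of the Col-0 ecotype, 15 days old. The gapcp1gapcp2 double mutant (3 arrays) carries defects in GAPCP1 and GAPCP2, both genes for the glycolytic plastid form of the dehydrogenase GAPDH. Wild type (3 arrays) was its control. With 3 arrays a genotype, precision is limited by their number. Plants of both genotypes had been given 0.75 µM abscisic acid (ABA) for 8 days, so every level below is a level under ABA. The labels give neither the alleles nor the number of plants in a sample, and they call the arrays biological replicates. No one-gene probe set was assigned to GAPCP1 or GAPCP2, so the genotype was not checked by transcript. A remark in the labels mentions embryos, whereas the tissue is otherwise given as seedlings. RCA, for the Rubisco activase of leaf mesophyll, had an intensity of 10046, 9203 and 9844 in mutant 1, 2 and 3, against 9970.3, 9611 and 9604 in wild type 1, 2 and 3, and none of the 9 listed seed and embryo markers had a one-gene probe set. Array medians lay between 106 and 113.

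Whether the members share a pathway was not tested, and most are known here only by their locus code. The annotation used here describes 7 of them, and a role is given for those 7 only. Tau class glutathione transferases attach glutathione to reactive molecules, and alkenal reductases remove reactive carbonyls that form when lipids are oxidised. Sucrose phosphate synthase makes the precursor of sucrose, the sugar that leaves carry to the root. Mitochondrial genomes of plants still encode core subunits of the respiratory chain.

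The 61 members stood at 3 levels by array. Relative to each gene's own mean over the 6 arrays, the median member lay at 0.42 in mutant 1, -0.51 in mutant 2 and 0.06 in mutant 3 on the log2 scale, against -0.37 in wild type 1, 0.44 in wild type 2 and -0.07 in wild type 3. The same median over all 15922 tested probe sets stayed between -0.04 and 0.03 in each array. Across tested probe sets, deviations from the genotype means correlated at 0.60 between mutant 1 and wild type 2 and at 0.39 between mutant 2 and wild type 1. Other pairings of a mutant with a wild type array gave -0.59 to 0.23, the highest for mutant 3 with wild type 1. Deviations from a mean of 3 arrays are tied to each other, so these correlations are not independent. Of the members, 33 had their highest value in wild type 2, 24 in mutant 1 and 4 in mutant 3. Their lowest value was in mutant 2 for 43, in wild type 1 for 17 and in wild type 3 for 1. Pair differences ran from 0.70 to 1.56 with a median of 0.85, and 16 members reached 1 or more. As a ratio of mean intensities, mutant 1 and wild type 2 over mutant 2 and wild type 1, this was 1.64 to 3.51 with a median of 1.85.

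**Figure D1:**
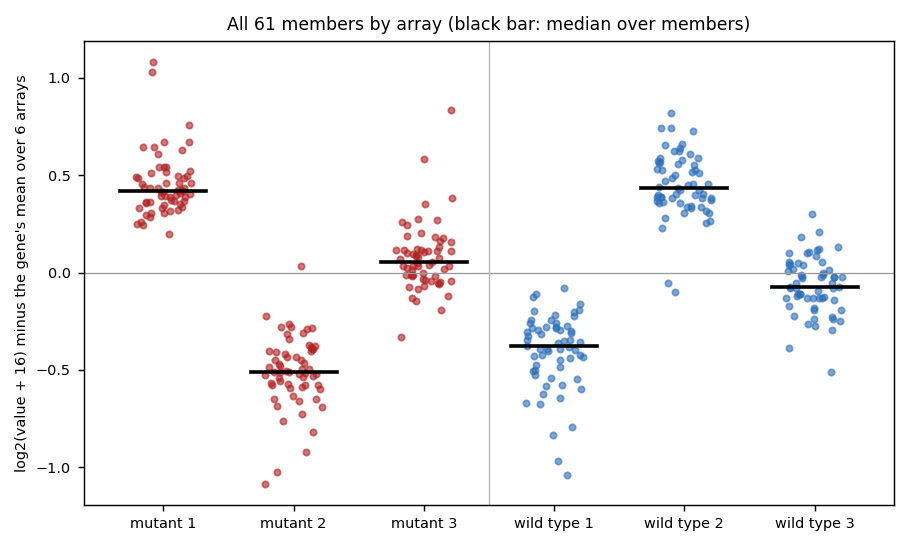
Level of each of the 61 members in each array, as log2(value + 16) minus the gene's mean over the 6 arrays. Points are genes, black bars are medians over genes, mutant arrays are red and wild type arrays blue. The medians are 0.42 in mutant 1 and 0.44 in wild type 2, and -0.51 in mutant 2 and -0.37 in wild type 1.

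The members with an annotated role were led by GSTU25, a glutathione transferase of the tau class. Its intensity was 558, 188 and 310.1 in mutant 1, 2 and 3, against 251, 587 and 339 in wild type 1, 2 and 3. Mutant 1 and wild type 2 were its highest arrays and mutant 2 its lowest, with a pair difference of 1.33 and a ratio of 2.60. ATSPS4F, a sucrose phosphate synthase, had 1180.3, 517 and 794 in the mutant arrays in number order, against 629.7, 1216 and 821 in the wild type arrays. Mutant 3 and wild type 3 of ATSPS4F lay near the middle of that range, and the pair difference was 1.05. For AT3G21670, named NPF6.4 and a member of the nitrate and peptide transporter family, the values were 786, 444 and 648 in mutant 1, 2 and 3, against 476, 943 and 626 in wild type 1, 2 and 3. Both mutant 3 and wild type 3 again fell between the pairs.

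AOR, the alkenal/one oxidoreductase, was brighter and had a smaller pair difference of 0.72. Its arrays read 1698, 1019 and 1371 in the mutant arrays in number order, against 1065, 1757 and 1209 in the wild type arrays. CDI, named for its induction by cadmium, had 841, 528 and 667 in mutant 1, 2 and 3, against 479.9, 976 and 660.4 in wild type 1, 2 and 3. In CDI wild type 1 was the lowest array, unlike in AOR, where mutant 2 was.

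The mitochondrial genome gave the members nad4 and cox1, but other tested genes of it were not members. Among these, the pair difference was 0.31 for ccb382, 0.19 for nad9, 0.47 for cox2, 0.13 for ccb452 and 0.13 for matR. Of those named, all but ccb382 were also below the signal minimum. The share of members among all tested genes of that genome was not counted. The values of nad4, for a subunit of NADH dehydrogenase, were 1477, 889 and 1636 in mutant 1, 2 and 3, against 547, 1299 and 1069 in wild type 1, 2 and 3. Mutant 3 was its highest array, as in cox1, AT2G15880 and AT3G10120 but in no other member. For cox1, a cytochrome c oxidase subunit, they were 208, 184 and 234 in the mutant arrays in number order, against 79.0, 231 and 196 in the wild type arrays. Wild type 1 alone was low in cox1, and the other 5 arrays lay between 184 and 234. The genotype values of both are given further on.

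Among members without an annotated role, AT3G05400 had the largest pair difference, 1.56, a ratio of 3.51. Its intensity was 167, 38.1 and 122 in mutant 1, 2 and 3, against 62.5, 186 and 88.8 in wild type 1, 2 and 3, and mutant 2 was the lowest array. AT3G56290, second at 1.45, had 1228, 428 and 766 in the mutant arrays in number order, against 446, 1217 and 628 in the wild type arrays. The arrays within each of its pairs differed by at most 0.06 on the log2 scale. AT1G80130 had 157, 42.6 and 104 in mutant 1, 2 and 3, against 56.0, 139 and 121 in wild type 1, 2 and 3, with wild type 3 above mutant 3. AT5G20790 had 185, 83.8 and 119 in the mutant arrays in number order, against 60.3, 180.2 and 114 in the wild type arrays, and here wild type 1 was lower than mutant 2.

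**Figure D2:**
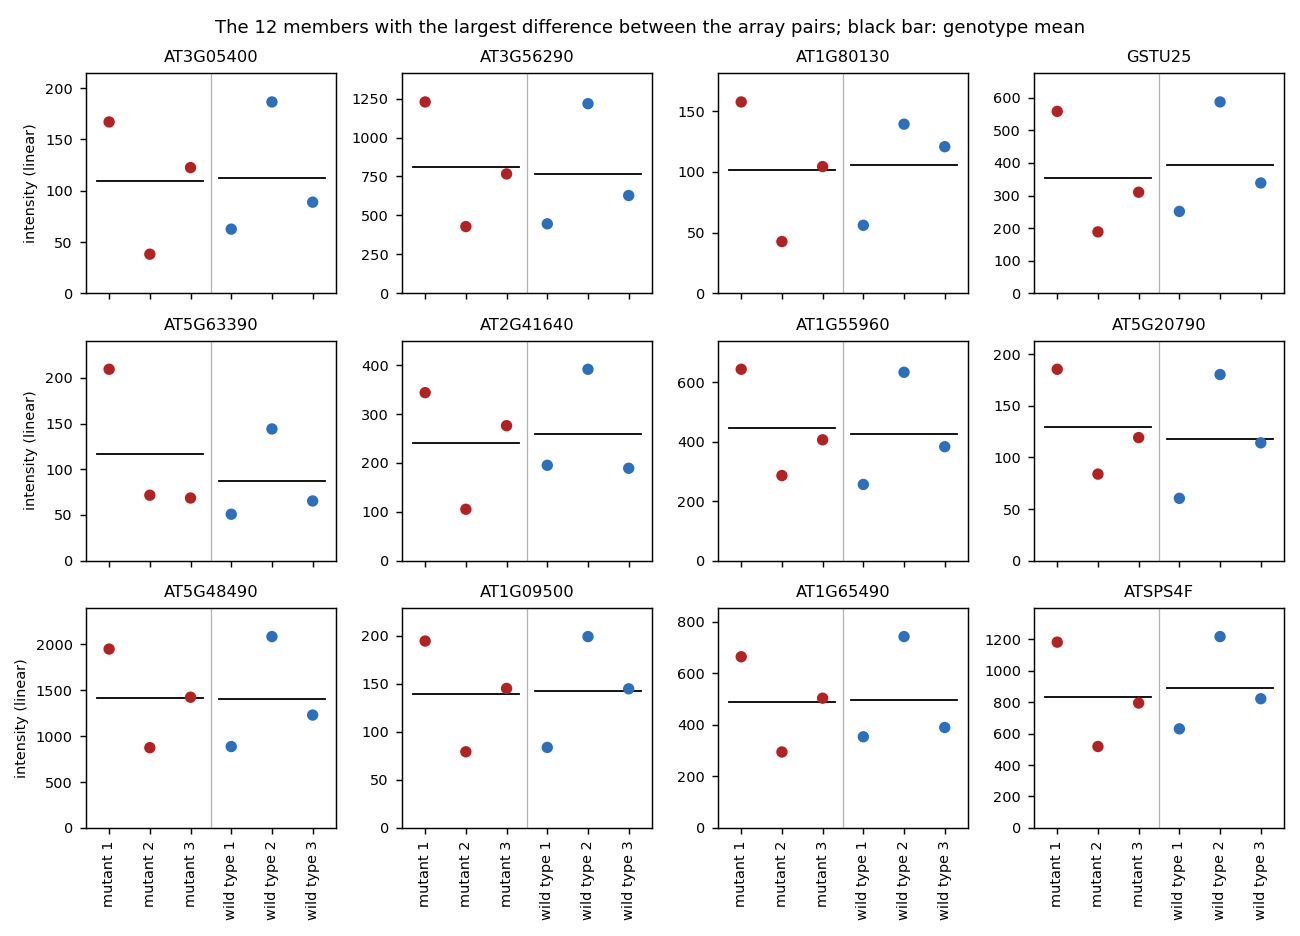
Intensity on a linear axis in each array for the 12 members with the largest pair difference. Points are arrays (mutant red, wild type blue) and black bars are genotype means. In all 12 panels mutant 1 and wild type 2 are the highest arrays, and in AT5G63390 mutant 3 and wild type 3 lie near the low arrays.

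Pairs that matched closely were a minority, though the share over all tested probe sets was not counted. In 12 members mutant 1 differed from wild type 2, and mutant 2 from wild type 1, by less than 0.1. AT5G48490 was one, with 1949, 875 and 1425 in mutant 1, 2 and 3, against 887, 2085 and 1230.2 in wild type 1, 2 and 3. AT1G09500 was another, with 194, 79.3 and 145 in the mutant arrays in number order, against 83.8, 199 and 145 in the wild type arrays, and its mutant 3 and wild type 3 were at nearly the same level. AT3G56360, the brightest member, had 4488, 2402 and 3388 in mutant 1, 2 and 3, against 2383, 4413 and 3584 in wild type 1, 2 and 3. Mutant 3 and wild type 3 of these 3 genes all lay between the pairs. AOR belonged to the same 12.

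In 7 members a pair was split by 0.5 or more, again without a count over all tested probe sets. AT2G41640 had 344, 105 and 276 in the mutant arrays in number order, against 195, 392 and 189 in the wild type arrays, with mutant 2 far below all other arrays. AT2G07695 had 341, 134 and 164 in mutant 1, 2 and 3, against 82.5, 153 and 164 in wild type 1, 2 and 3, and mutant 1 alone stood high. In AT2G15880 mutant 3 was the highest array, with 180.3, 69.5 and 243 in the mutant arrays in number order, against 79.8, 119 and 149 in the wild type arrays. AT3G10120 had 155, 68.7 and 162 in mutant 1, 2 and 3, against 111, 161 and 97.0 in wild type 1, 2 and 3, and mutant 2 was again the lowest. AT3G05400, nad4 and cox1 were the others of the 7. The gap between the lower array of the high pair and the higher array of the low pair was 0.16 for cox1 and 0.17 for AT2G07695, against at least 0.43 for all other members.

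Only mutant 1 and wild type 2 stood out in AT5G63390, whose other 4 arrays lay between 50.8 and 71.6. Its values were 209, 71.6 and 68.5 in mutant 1, 2 and 3, against 50.8, 144 and 65.3 in wild type 1, 2 and 3. AT1G55960, with a pair difference of 1.19, had 644, 287 and 407 in the mutant arrays in number order, against 257, 634 and 384 in the wild type arrays. AT1G65490 had 665, 295 and 504 in mutant 1, 2 and 3, against 354, 743 and 390.1 in wild type 1, 2 and 3. In both, mutant 3 and wild type 3 lay between the pairs, wild type 3 of AT1G65490 near the low one. The values of AT5G04120 were 290.5, 121 and 155 in the mutant arrays in number order, against 119, 241 and 211 in the wild type arrays, with wild type 3 well above mutant 3. For AT2G21640 they were 138, 57.6 and 111 in mutant 1, 2 and 3, against 72.6, 159 and 94.7 in wild type 1, 2 and 3. AT2G41730 had 255, 132 and 171 in the mutant arrays in number order, against 127, 298 and 195 in the wild type arrays. Mutant 2 was the lowest array of AT2G21640, whereas wild type 1 was the lowest of AT5G04120 and AT2G41730.

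The remaining members of the 25 with the largest pair difference ranged from 0.87 to 0.99. AT3G44970 had 147, 63.7 and 101 in mutant 1, 2 and 3, against 80.7, 172 and 85.8 in wild type 1, 2 and 3. AT3G28220 had 211, 107 and 169 in the mutant arrays in number order, against 117, 256 and 145 in the wild type arrays. AT4G24700 had 152, 69.8 and 108 in mutant 1, 2 and 3, against 84.8, 164 and 97.4 in wild type 1, 2 and 3. All 3 were highest in wild type 2 and lowest in mutant 2. AT3G17770 had 425, 190.1 and 341 in the mutant arrays in number order, against 258, 418 and 328 in the wild type arrays. AT3G16670 had 1450.4, 722 and 1179 in mutant 1, 2 and 3, against 798, 1366 and 994 in wild type 1, 2 and 3. AT4G27280 had 1053, 595 and 721 in the mutant arrays in number order, against 585, 1135 and 817 in the wild type arrays. The lowest array was mutant 2 in AT3G17770 and AT3G16670 and wild type 1 in AT4G27280. The other 36 members, AOR, CDI, cox1, AT2G15880 and AT3G10120 among them, had pair differences of 0.70 to 0.86.

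At the threshold, the members just inside were AT5G56850, AT5G13770 and AT1G04770, each at 0.70. The genes just outside were AT1G72940, AT4G20820 and AT1G73040, also 0.70 when rounded. The dimmest member was AT5G63390 with a mean of 102, and AT1G72920, with a pair difference of 1.35, missed the signal minimum at a mean of 99.95. The set therefore has no sharp edge.

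Mutant 3 and wild type 3 took no part in the choice beyond the mean signal, and they lay between the pairs for most members. On a scale where 0 is the mean of mutant 2 and wild type 1 and 1 is the mean of mutant 1 and wild type 2, the median member was at 0.55 in mutant 3 and 0.44 in wild type 3. Mutant 3 lay between the pairs for 54 of 61 members and wild type 3 for 52, and both did for 49. In mutant 3, 6 members reached an array of the high pair (AT2G07695, nad4, AT2G15880, AT4G16870, cox1 and AT3G10120) and AT5G63390 alone reached the low pair. In wild type 3, AT2G07695 and AT2G15880 reached the high pair and 7 members the low pair (AT5G63390, AT2G41640, AT4G37560, AT5G41050, AT3G10120, AT2G31150 and AT5G13070). Genes picked for 4 arrays that lie far apart leave much room for the remaining arrays in between, so these positions are a description only.

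**Figure D3:**
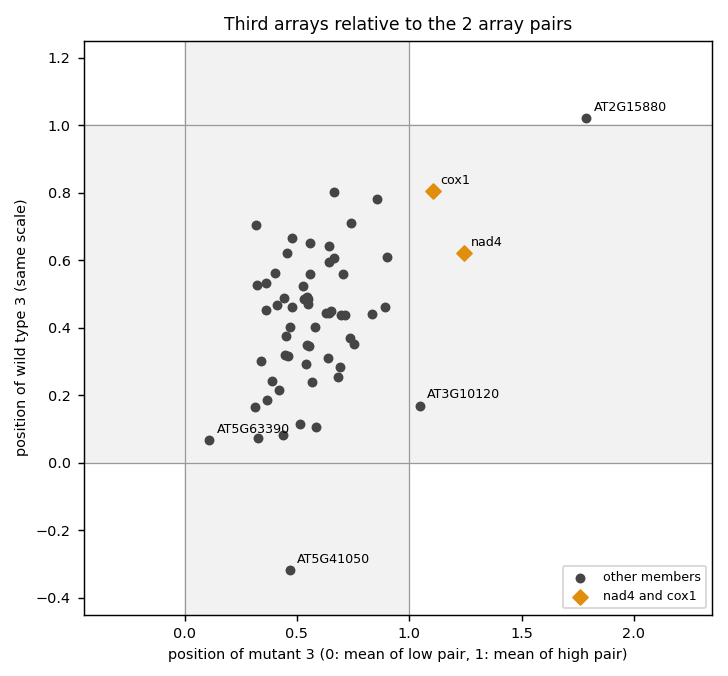
Position of wild type 3 (vertical) against mutant 3 (horizontal) for each of the 61 members, where 0 is the mean of mutant 2 and wild type 1 and 1 the mean of mutant 1 and wild type 2. Orange diamonds are nad4 and cox1, and grey bands span 0 to 1. Most points lie inside both bands, with medians of 0.55 for mutant 3 and 0.44 for wild type 3.

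Members differed in how mutant 3 compared with wild type 3. The largest differences above 0 were 0.66 for AT3G10120, 0.65 for AT2G15880, 0.61 for nad4 and 0.59 for AT5G41050 on the log2 scale. AT5G41050 had 583, 320.1 and 459 in mutant 1, 2 and 3, against 396, 642 and 299 in wild type 1, 2 and 3, and wild type 3 was its lowest array. At the other end were AT5G04120 at -0.40, AT1G80130 and AT4G27280 at -0.18 each, and AT2G41730 at -0.17. Mutant 3 was above wild type 3 for 49 members and for 63.4% of all tested probe sets. Over all tested probe sets this difference had a median of 0.07, and 35 members lay above that median. After quantile normalization mutant 3 was above wild type 3 for 35 members. With 1 array on each side there is no test.

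Inside the pairs, the 2 arrays of the high pair were closer than those of the low pair. The difference of mutant 1 from wild type 2 had a median size of 0.10 over members and 0.12 over all tested probe sets. For mutant 2 and wild type 1 the median size was 0.22 over members and 0.14 over all tested. With its sign, mutant 1 minus wild type 2 had a median of -0.04 (range -0.33 to 1.08), and mutant 2 minus wild type 1 a median of -0.12 (range -0.80 to 1.08). Over all tested probe sets these medians were -0.02 and -0.06. AT2G07695 was the extreme of the high pair, higher in mutant 1. In the low pair AT2G41640 was lowest in mutant 2 relative to wild type 1 and cox1 highest. In 43 members both differences were under 0.3 in size, a count not made over all tested probe sets.

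The genotypes were compared over all 6 arrays with limma, fitted to all 15922 probe sets above a filter on dim signals, and no member was called. Of the 61 members, all of which passed that filter, 0 had an adjusted p of 0.05 or less by limma, against 0% of all tested probe sets. At an unadjusted p under 0.05 there were again 0 members, against 1.70% of the tested probe sets. The rule fixes this in part, because it makes the genotypes overlap in every member and chooses genes with a wide spread inside both genotypes. The standard error of the genotype difference had a median of 0.26 over members and 0.14 over all tested probe sets. Mutant minus wild type had a median of -0.02 over members (range -0.20 to 0.56) and -0.003 over all tested, with 27 members above 0 and 34 below. For 51 members the 95% interval of the difference lay within -1 and 1, so for the other 10 the interval passed 1 in size.

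The members with the smallest p in that fit were AT2G07695, nad4, cox1 and AT2G15880, each with an adjusted p of 1.00 by limma with Benjamini-Hochberg adjustment. AT2G07695 had an intensity of 213 ± 112 in the mutant and 133 ± 44.2 in wild type (SD, n = 3 each), and its log2 difference was 0.56 ± 0.33 (SE). The intensity of nad4 was 1334 ± 393 in the mutant and 972 ± 385 in wild type (SD, n = 3 each), and its log2 difference 0.49 ± 0.32 (SE). For cox1 the difference was 0.39 ± 0.31 (SE) and for AT2G15880 0.34 ± 0.37 (SE). All 4 were above 0 with a standard error over 0.5 times the difference. Without wild type 1, the low array of cox1, the difference of cox1 was -0.03, and without other single arrays it was 0.31 to 0.66. The differences of AT2G07695, nad4 and AT2G15880 stayed above 0 whichever array was left out, but that of AT2G15880 fell to 0.009 without mutant 3.

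**Figure D4:**
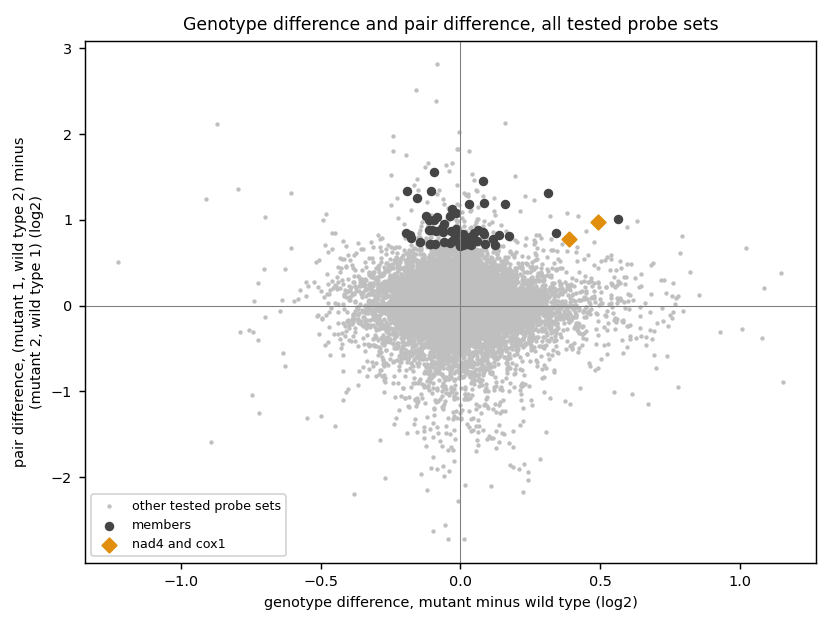
Genotype difference (mutant minus wild type, horizontal) and pair difference (vertical), both log2, for the 15922 tested probe sets. Dark points are members, orange diamonds nad4 and cox1, and grey points all others. Members start at a pair difference of 0.70 by the rule and spread from -0.20 to 0.56 across.

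Pathway lists were set beside the members by the pair difference, as a description. Of 299 genes in 24 response lists, 41 were tested in 16 lists, and 2 of them, GSTU25 and AT2G21640, were members. Both stood in the list of mitochondrial and oxidative stress, in which 3 of 7 genes were tested. The other tested gene was NDB2, an alternative NAD(P)H dehydrogenase, at 0.03. Over all one-gene probe sets with enough signal, 1.18% met the thresholds before any were set aside. In the iron list of 33 genes, 4 of 7 tested genes met them and were set aside. One of these, BHLH101, a regulator of the iron deficiency response, had 723, 116 and 315 in mutant 1, 2 and 3, against 119.9, 778 and 400 in wild type 1, 2 and 3. Of the tested iron genes outside the thresholds, F6'H1, which serves coumarin synthesis under iron shortage, had a pair difference of 0.02. BTSL1 had 0.65 and AT3G07720 -0.06.

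COR47, a dehydrin, had 1731, 3187 and 2680.1 in mutant 1, 2 and 3, against 3123, 1708 and 2493 in wild type 1, 2 and 3. Another dehydrin, LTI30, had a pair difference of -0.96, COR27 -0.83 and the late embryogenesis abundant gene LEA4-5 of the ABA list -0.99. COR15A ran with the members at 0.64, under the threshold. Of the 6 tested cold genes 4 were lower in mutant 1 and wild type 2 without overlap and 1 was higher. Among one-gene probe sets with enough signal 24.6% were lower and 29.7% were higher without overlap. In the jasmonate list THI2.2, a thionin set aside by the rule, had 378, 91.8 and 236 in mutant 1, 2 and 3, against 103, 393 and 209.8 in wild type 1, 2 and 3, while PDF1.2, a defensin, reached 0.47 and THI2.1 0.04. The touch list was split between STZ, a zinc finger factor, at 0.64 and CML38, a calmodulin-like protein, at -0.55. WRKY53, the remaining tested gene of that list, had -0.16. Of 14 salicylic acid genes 1 had a one-gene probe set, and it did not pass the filter. None of the 41 tested response genes passed the genotype test in limma.

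The measured root markers lay opposite to the members. Of 5 listed root hair genes 2 had a one-gene probe set, both expansins. Both were lower in mutant 1 and wild type 2 than in mutant 2 and wild type 1, without overlap. Among one-gene probe sets with enough signal, 24.6% were lower in this way. EXPA18 had 66.1, 256 and 109 in mutant 1, 2 and 3, against 177, 89.1 and 159.7 in wild type 1, 2 and 3. EXPA7 had 37.9, 75.3 and 63.6 in the mutant arrays in number order, against 101, 47.2 and 44.5 in the wild type arrays. PYK10 and NAI2, which belong to ER bodies and are strong in roots, had pair differences of -0.46 and -0.47, also without overlap. Summed intensities of the 2 root hair markers were 104 in mutant 1 and 136 in wild type 2, against 332 in mutant 2 and 278 in wild type 1, with 172 in mutant 3 and 204 in wild type 3. RCA had a pair difference of 0.04 and FMA, a guard cell regulator, 0.20. The direction was not particular to root markers, as AUR1 and AUR2 of the dividing cell list had -0.21 and -0.20. Of these, AUR1 alone was without overlap. The part of root and shoot tissue in the members' levels was not tested. In RNA of whole seedlings, fewer cells of a type and less RNA per cell cannot be told apart. Of 12 marker lists 5 had a one-gene probe set, so endodermis, xylem, phloem, shoot epidermis, root cap and suberised tissue were not analysed here.

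**Figure D5:**
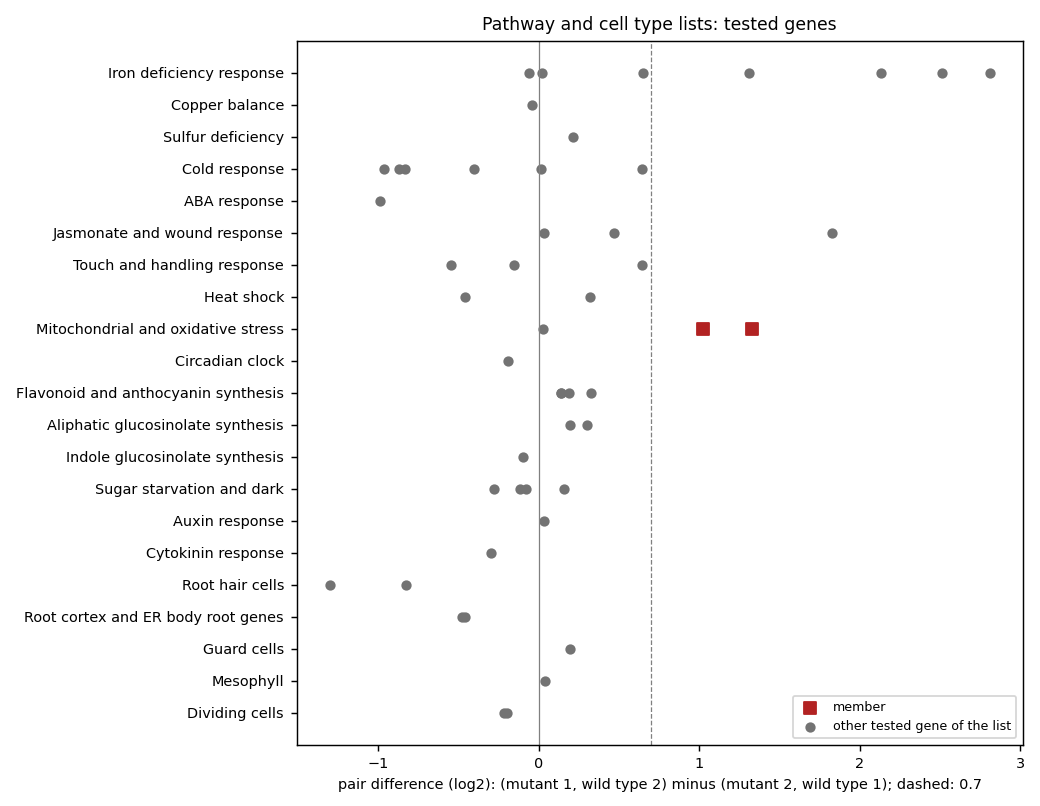
Pair difference (log2) of each tested gene of the pathway and cell type lists, one line per list. Red squares are the members GSTU25 and AT2G21640, grey points other genes, and the dashed line marks 0.7. The 4 iron genes and THI2.2 past the line were set aside by the rule, and EXPA18 lies lowest.

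Beyond the rule, mean intensity and position in the genome were examined. Mean intensity of the members had a median of 276, near the 265 of all one-gene probe sets with enough signal, and ran from 102 to 3443, with 24 members under 200. Apart from nad4 and cox1, the members were assigned to all 5 nuclear chromosomes. There were 15 on chromosome 1, 10 on chromosome 2, 13 on chromosome 3, 8 on chromosome 4 and 13 on chromosome 5. Of 58 members placed in gene order, 3 pairs were within 10 genes of each other: AT4G27280 with AT4G27300, AT3G56290 with AT3G56360, and AT2G41640 with AT2G41730. Among 127 genes chosen with the sign of the rule turned there were 6 such pairs. The probe sets of AT2G07695 and AT2G41730 are of types whose probes can match several transcripts, so their signals may come from more than 1 gene. The 127 genes high in mutant 2 and wild type 1 made up 2.02% of the same probe sets, so the pattern was not confined to one direction. A further 99 unnamed probe sets and 2 assigned to several genes met the same thresholds and are not described here.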

How the data were processed

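RNA of whole seedlings was hybridised to Affymetrix arrays, per the labels. The authors deposited linear intensities per probe set, and the submitters' processing notes name GCOS. Its summarising, scaling and subtraction are not stated. Across the 6 arrays 3919 intensities were below 0, none in a member. Gene names are those of the platform's probe annotation, updated through a RefSeq table of TAIR10.1 that matched 13436 of 13513 one-gene probe sets and 59 of 61 members (not nad4 and cox1).

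Negative values were set to 0 before log2(value + 16), which understates differences of dim genes. The lowest 30% of probe sets by mean were left out and limma 3.58.1 (R 4.3.3; lmFit, eBayes with trend, two-sided, Benjamini-Hochberg) was fitted to the rest, after tests on simulated data. Members and lists were chosen with earlier results of these data known. Values in every array are given for the 25 members of largest pair difference and for the members in a list, and also, chosen after their values were seen, for AOR, CDI, cox1, AT2G15880, AT3G10120 and AT5G41050. Promoter sequences were not used here. Alternatives changed the filter, scaling, pseudocount, variance trend, thresholds, replicate block and arrays.

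Arrays of the same number did not vary together (correlations of deviations -0.59, -0.49 and -0.13), so the numbers were not treated as pairs. Mutant 1 with wild type 2 gave 0.60 and mutant 2 with wild type 1 gave 0.39.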

Additional observations from a re-analysis of the deposited data

How the results depend on the processing

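With limma under all 15 alternatives of the genotype fit, 0 probe sets and 0 members passed, the smallest adjusted p was 0.999, and between 115 (lowest 50% left out) and 619 (no filter) probe sets had an unadjusted p under 0.05, against 271 as reported. The replicate block gave 0 calls and 136 such probe sets. With 1 array left out, 4 members had an unadjusted p under 0.05 without mutant 2 and 1 without wild type 2, the members' median difference ranged from -0.23 to 0.23, and the log2 differences of AT2G07695 (0.19 to 0.82), nad4 (0.13 to 0.76), cox1 (-0.033, without wild type 1, to 0.66) and AT2G15880 (0.01 to 0.81) moved by over 1.5 times. The number of members depends on the thresholds: 33 with a pseudocount of 64, 96 with a signal minimum of 50, 37 with a minimum of 200 and 16 with a difference minimum of 1, and 52 to 83 under the other scalings and a pseudocount of 1. Their median pair difference was 0.71 with a pseudocount of 64, which by construction shrinks dim genes, and 0.80 to 0.93 without 1 of the 4 arrays, an alternative chosen after seeing the data. All 61 pair differences stayed above 0 under the 5 scalings and pseudocounts (lowest 0.52, with a pseudocount of 64). Members were chosen by that difference, so this outcome was largely fixed by the rule and is no check on it. Quantile normalization brought wild type 3 to 0.52 beside mutant 3 at 0.53. Signals near background limit the 24 members under 200.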
